A study of Mus musculus with 8 samples.

Results

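Most proteins of a mitochondrion are encoded in the nucleus, made in the cytosol and carried across the mitochondrial membranes by a set of translocases. The genes of this import machinery were taken from the count table by name, as every symbol that starts with Tomm or Timm and a digit, together with Pam16, Dnajc19, Grpel1, Chchd4, Gfer, Samm50, Mtx1, Mtx2, Pmpca, Pmpcb, Immp1l and Oxa1l. The rule goes by name alone and found 38 of 22065 named genes. The study asked what loss of MITOL (gene symbol Marchf5), a ubiquitin ligase of the mitochondrial outer membrane, does to hematopoietic stem cells (HSCs). Bulk RNA-seq was done on 4 Mitol KO and 4 control libraries, each made from 100 sorted bone marrow HSCs (Lineage-, CD150+, CD48-, EPCR+) of C57BL/6 mice aged 8 to 10 weeks. Mitol KO mice carried floxed Mitol alleles on both chromosomes and MX1-cre, a Cre driven by an interferon-inducible promoter, and controls were littermates without the Cre. Both groups received Poly:IC, which turns that promoter on and is itself an inflammatory stimulus, and HSCs were taken 1 week later. MX1-cre is active in many interferon-responsive cells and not in HSCs alone. No label says whether the libraries of a group came from separate mice, so p-values measure the spread between these libraries, which may be technical.

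Precursors first meet the TOM complex of the outer membrane, in which receptors hand them to the Tomm40 channel. Preproteins with a presequence then pass the TIM23 complex of the inner membrane and are pulled into the matrix by a motor built around the mitochondrial Hsp70, where peptidases remove the presequence. Carrier proteins are escorted by the small TIM chaperones to the TIM22 complex, cysteine-rich proteins are trapped by a disulfide relay in the intermembrane space, and beta-barrel proteins are placed in the outer membrane by the SAM complex. HSCs are largely quiescent and are known for low reliance on respiration.

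Named genes received between 7214935 and 12398138 counts per library. The targeted gene Marchf5 had 232 to 308 normalised counts (raw counts divided by the size factor of DESeq2) in Mitol KO and 262 to 333 in control libraries. Its log2 fold change was -0.15 (edgeR, adjusted p = 0.498), and a count per gene does not separate deleted exons from the others. Among 8 HSC markers, all were detected, and 2 were lower in Mitol KO by edgeR (Kit and Hlf). Of the same markers 0 were higher by edgeR, 2 by DESeq2 and 2 at an unadjusted p under 0.05 by edgeR. The 8 markers of cycling cells were all higher by edgeR, with sums of 5294 to 11556 in Mitol KO and 2661 to 5586 in control libraries. Of 8 erythroid markers 6 were tested by edgeR and 2 were higher, Gata1 and Hbb-bt, whereas 1 of the 8 was higher by DESeq2. The 8 erythroid markers summed to 1180 to 3767 in Mitol KO and 468 to 917 in control libraries. Cd48, which the sort gated out, was higher at 39.6 ± 17.4 against 11.8 ± 7.24 normalised counts (SD, n = 4, edgeR, adjusted p = 0.045), and 0 of the other 2 markers of progenitors, Flt3 and Cd34, passed. Neutrophil markers were near 0 and summed to 6.35 to 26.5 in Mitol KO and 39.6 to 81.7 in control libraries. B-lineage sums were 136 to 150.3 in Mitol KO and 145 to 204 in control, T-cell sums 20.1 to 36.0 and 35.0 to 54.3, and the defining markers Ebf1, Pax5, Cd3e, Cd3g and Cd8a were not in the table. In bulk samples fewer cells of a type and less RNA per cell cannot be told apart.

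The promoters of the 4 genes that passed the test are printed here because these genes rose together, and that of Timm17a because it is the paralog of Timm17b and was not called. Each is the run of 200 bases before the start of the canonical transcript of GENCODE vM39, read 5′ to 3′ from GRCm39, with matches to the searched motifs in capitals.
Timm50, chr7:28011517-28011716, minus strand: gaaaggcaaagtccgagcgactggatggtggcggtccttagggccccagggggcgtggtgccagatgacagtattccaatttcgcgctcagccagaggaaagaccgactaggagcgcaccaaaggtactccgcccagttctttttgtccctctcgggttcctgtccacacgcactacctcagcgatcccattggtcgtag
Timm17b, chrX:7765374-7765573, plus strand: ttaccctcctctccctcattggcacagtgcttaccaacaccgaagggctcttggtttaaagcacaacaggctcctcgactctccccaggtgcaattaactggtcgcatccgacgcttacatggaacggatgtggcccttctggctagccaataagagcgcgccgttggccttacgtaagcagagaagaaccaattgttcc
Timm17a, chr1:135241517-135241716, minus strand: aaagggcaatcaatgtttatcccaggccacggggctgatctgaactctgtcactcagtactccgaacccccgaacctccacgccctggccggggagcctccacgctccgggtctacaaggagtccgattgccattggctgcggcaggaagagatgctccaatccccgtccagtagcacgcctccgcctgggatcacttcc
Tomm22, chr15:79554862-79555061, plus strand: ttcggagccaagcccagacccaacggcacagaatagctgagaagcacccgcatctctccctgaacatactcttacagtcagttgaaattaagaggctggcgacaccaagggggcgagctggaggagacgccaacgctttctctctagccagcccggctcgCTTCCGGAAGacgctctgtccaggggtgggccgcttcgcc
Timm8b, chr9:50514993-50515192, plus strand: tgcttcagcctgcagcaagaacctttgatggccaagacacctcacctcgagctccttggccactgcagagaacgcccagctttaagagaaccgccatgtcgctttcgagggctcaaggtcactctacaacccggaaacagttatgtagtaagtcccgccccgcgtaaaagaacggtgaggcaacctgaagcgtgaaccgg
These letters were searched on both strands for the NRF1 core GCGCATGC, the E-box CACGTG, the ETS core CCGGAAG, the YY1 core AAGATGG and the E2F core GCGGGAA. Of the 5 windows only that of Tomm22 held a match, a pair of overlapping ETS cores on opposite strands at -40 and -37. Over the 33 tested protein-coding members, the ETS core was found in 12.1% of windows (Tomm22, Timm23, Mtx2 and Pmpca) and in 6.29% of 21770 windows of all protein-coding genes. The E2F core was found in 15.2% of the members' windows (Tomm7, Tomm40, Timm13, Dnajc19 and Gfer) and in 4.04% of all. The shares for NRF1, E-box and YY1 were 3.03%, 6.06% and 6.06% against 2.51%, 5.43% and 3.23%. The members counted are genes that passed the expression filter, whereas the windows of all protein-coding genes were not limited to tested genes. These shares therefore compare unlike sets, and no enrichment was tested. A match is a description of letters and not of bound factors. The windows of Timm17b and Timm8b also covered an exon of a neighbour on the opposite strand, Pqbp1 and Sdhd, and those of Timm50 and Tomm22 an exon of the predicted genes Gm73882 and Gm30877.

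Transcripts of the import machinery leaned higher in Mitol KO HSCs, and 4 of the 34 tested members rose. These were Timm50 and Timm17b of the TIM23 complex, the small TIM chaperone Timm8b and the TOM receptor Tomm22, with fold changes between 1.43 and 1.80. Calls were made at an adjusted p under 0.05, from edgeR's quasi-likelihood F-test and the Benjamini-Hochberg method over all 16444 tested genes. The 4 members are 11.8% of those tested, whereas 4.68% of all tested genes rose. Of the tested members 0 fell by edgeR or DESeq2, against 3.75% of all genes. At an unadjusted p under 0.05, 11 members (32.4%) were higher and 1 (2.94%) was lower, against 13.6% and 12.8% of all genes. The log2 fold change was positive for 28 and negative for 6 members, with a median of 0.25, whereas the median over all tested genes was -0.020 and 47.7% were positive. Libraries of both groups did not overlap for 8 members, 23.5% of those tested, and all 8 were higher in Mitol KO. Over all genes, 8.17% were separate and higher and 7.18% separate and lower. DESeq2 called the same 4 members higher, with a background of 8.19% of genes higher by that test. At an adjusted p under 0.1 by edgeR the members called were again these 4, while 8.48% of all genes were higher, so the members' share stood closer to the background. The members together took 0.141% ± 0.0124 of named counts in Mitol KO and 0.131% ± 0.00215 in control libraries (SD, n = 4), a difference within the spread by a 2-sided exact permutation test (p = 0.143).

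**Figure D1:**
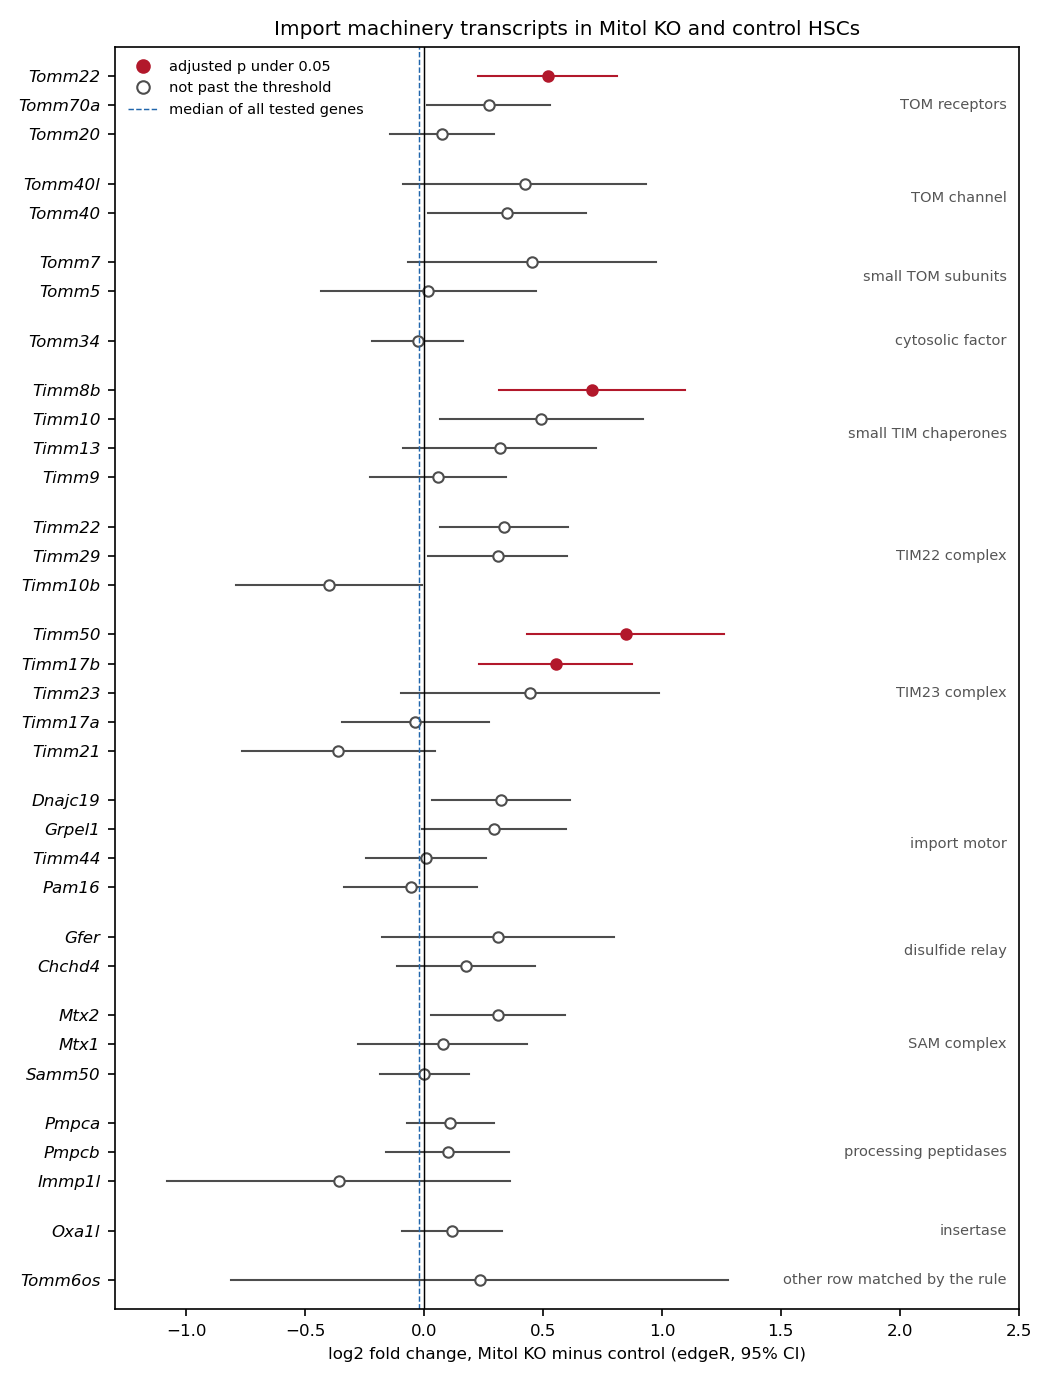
Log2 fold change (Mitol KO minus control, x axis) of the 34 tested members, grouped by translocase on the y axis, with 95% confidence intervals from edgeR. Filled red points passed an adjusted p of 0.05, and the dashed line is the median of all tested genes at -0.020. The 4 red points lie between 0.52 and 0.85, and 28 of 34 points lie right of 0.

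The calls rested on most of the 8 libraries. With 1 library left out, between 0 and 6 members passed, and 0 passed without Mitol KO replicate 1, Mitol KO replicate 2, control replicate 2 or control replicate 4. A single member passed without Mitol KO replicate 3 or without control replicate 3, 3 without control replicate 1, and 6 without Mitol KO replicate 4, where Timm10 and Tomm70a joined the 4. The number of all genes called moved in the same fits, from 1386 to between 359 and 2501. All 4 members kept a positive log2 fold change in each of these fits. Leaving out control replicate 4 moved the log2 fold change of several other members by over 1.5 times. Without it the value of Immp1l went from -0.36 to -0.049, Timm10b from -0.40 to -0.25, Timm23 from 0.45 to 0.25 and Timm13 from 0.32 to 0.19. Timm29 went from 0.31 to 0.21, Gfer from 0.31 to 0.14, Oxa1l from 0.12 to 0.053, Pmpcb from 0.099 to 0.027 and Timm9 from 0.059 to 0.030. Other libraries also moved some members this far. Without control replicate 1 Timm13 went to 0.50 and Pmpcb to 0.19, and without Mitol KO replicate 4 Immp1l went to -0.19.

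Timm50 is the receptor subunit of the TIM23 complex that takes up presequences in the intermembrane space and keeps the channel closed when idle. It lies on the minus strand of chromosome 7 (28004699 to 28011516, GRCm39). Normalised counts were 756, 692, 532 and 367 in Mitol KO replicates 1 to 4 and 343, 281, 352 and 312 in control replicates 1 to 4. Every Mitol KO library was above every control library, but Mitol KO replicate 4 lay just above the highest control. The log2 fold change was 0.85 (standard error 0.19, edgeR, adjusted p = 0.023, 4 of 4 libraries), the largest among the 34 tested members. With 1 library left out it ranged from 0.71 to 1.04 and passed in 4 of 8 fits, being lost without Mitol KO replicate 1 or 2 and without control replicate 2 or 4.

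Timm17a and Timm17b are paralogous subunits that line the TIM23 channel together with Timm23. Timm17b (chrX:7765574-7776168, plus strand) had normalised counts of 280.2, 261, 246 and 226 in Mitol KO and 200.5, 172, 173 and 137 in control replicates 1 to 4. All 4 Mitol KO libraries were above the controls, and the log2 fold change was 0.55 (standard error 0.15, edgeR, adjusted p = 0.040). Timm17b passed in 2 of 8 fits with a library left out, those without Mitol KO replicate 4 or control replicate 1. Timm17a (chr1:135217009-135241522, minus strand) had 376, 315, 308 and 234 normalised counts in Mitol KO and 318, 318, 295 and 319.7 in control replicates 1 to 4. The control libraries of Timm17a lay within the range of the Mitol KO libraries, and its log2 fold change was -0.037 (95% interval from -0.35 to 0.27, edgeR, adjusted p = 0.897).

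The ratio of both paralogs within a library does not depend on how libraries are scaled. The log2 ratio of Timm17a to Timm17b was 0.43, 0.27, 0.32 and 0.046 in Mitol KO and 0.66, 0.88, 0.76 and 1.22 in control replicates 1 to 4, so all Mitol KO libraries were below all controls. Timm17a made up 50.8% to 57.3% of the counts of the pair in Mitol KO and 61.3% to 69.9% in control libraries. The difference in log2 ratio of -0.62 had p = 0.0286 by a 2-sided exact permutation test, the smallest that 4 against 4 libraries can give. The p-value of this test was 0.114 after adjustment over the 8 pairs compared, which does not pass. As 0.0286 is the floor, a pair could pass after adjustment only if most of the 8 pairs reached it too. The adjusted value therefore cannot decide whether this ratio differed. A stretch of the Timm17a coding sequence is shared with the annotated gene Gm7180, which is in the count table. Reads of Timm17a may therefore be split. Share and ratio use counts not divided by transcript length. Per kilobase of the canonical transcript, the control mean was 42.9 normalised counts for Timm17a and for Timm17b alike. The Mitol KO mean was 63.7 for Timm17b and 42.3 for Timm17a.

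The remaining members of the TIM23 complex did not pass. The channel subunit Timm23 had 106 to 167 normalised counts in Mitol KO and 53.9 to 119.6 in control libraries, which overlapped (log2 fold change 0.45, edgeR, adjusted p = 0.282). Stretches of its coding sequence (at least 75 bases at 95% identity) are shared with 7 other annotated genes, 2 of them in the count table, so reads may be split. Timm21, which couples TIM23 to the TOM complex, had 82.1 to 101.6 in Mitol KO and 100.0 to 146 in control libraries. Its log2 fold change was -0.36 (95% interval from -0.77 to 0.045, edgeR, adjusted p = 0.242).

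**Figure D2:**
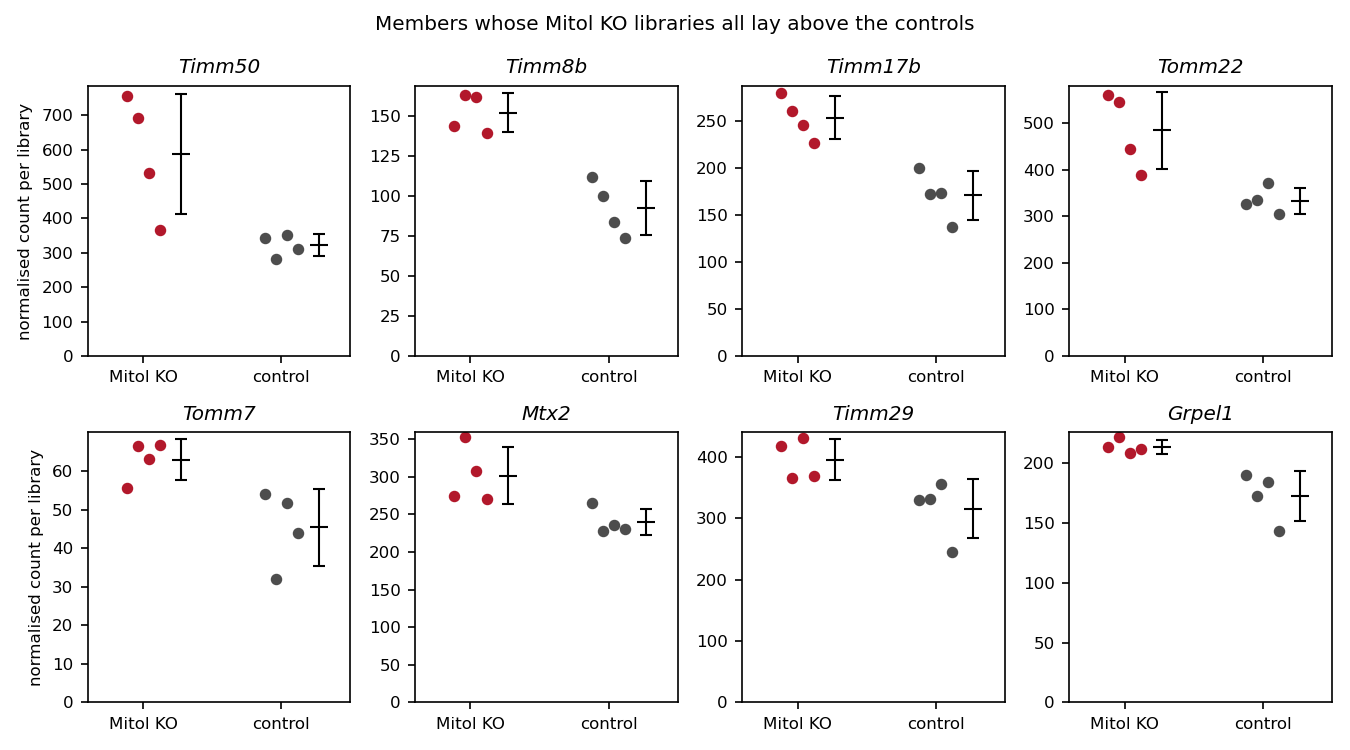
Normalised counts per library (y axis, from 0) of the 8 tested members whose groups did not overlap, with Mitol KO libraries in red and control libraries in grey. Points are replicates 1 to 4 from left to right, and bars are the mean and SD of 4 libraries. Timm50 spans 367 to 756 in Mitol KO, the widest range among the 8, while Grpel1 spans 208 to 221.

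Of the small TIM chaperones, hexamers that shield hydrophobic precursors in the intermembrane space, Timm8b was called. Timm8b (chr9:50515193-50527516, plus strand) had 144, 163, 162 and 139.7 normalised counts in Mitol KO and 112, 100.0, 83.8 and 73.6 in control replicates 1 to 4. The groups were separate, and the log2 fold change was 0.71 (standard error 0.18, edgeR, adjusted p = 0.035, 4 of 4 libraries). It passed in 2 of 8 fits with a library left out, those without Mitol KO replicate 4 or control replicate 1. In the annotation, 85.9% of the canonical transcript of Timm8b overlaps exons on the opposite strand of Nkapd1 and Sdhd, but 0 of its 249 coding bases do. Sdhd, a subunit of respiratory complex II, rose as well (log2 fold change 0.55, edgeR, adjusted p = 0.035), whereas Nkapd1 did not pass (0.0095, edgeR, adjusted p = 0.971). The library kit as described does not mark strand, so reads from overlapping exons cannot be told apart, and their part in the Timm8b counts was not tested.

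The partners Timm9 and Timm10, which form a hexamer of their own, differed in their values. Timm10 had 214, 190.2, 138 and 126 normalised counts in Mitol KO and 104, 123, 132 and 109 in control replicates 1 to 4, and Mitol KO replicate 4 fell within the control range (log2 fold change 0.49, edgeR, adjusted p = 0.132). Timm9, the highest of these chaperones per length of transcript, had 364, 396, 334 and 269 in Mitol KO and 339, 313, 338 and 303 in control libraries (0.059, edgeR, adjusted p = 0.817). The log2 ratio of Timm9 to Timm10 was 0.77, 1.06, 1.27 and 1.09 in Mitol KO and 1.70, 1.34, 1.36 and 1.47 in control replicates 1 to 4, again without overlap. Its difference of -0.42 had p = 0.0286 by the 2-sided exact permutation test and 0.114 adjusted over the 8 pairs, under the same limit as for Timm17a and Timm17b. Timm13, the partner of the Timm8 proteins, had 238 to 326 in Mitol KO and 156 to 291 in control libraries and did not pass (0.32, edgeR, adjusted p = 0.303). The Timm8b paralogs Timm8a1 and Timm8a2 were too low to be tested, at 6.35 to 7.32 and 0 to 6.23 normalised counts in Mitol KO and 0 to 5.28 and 0 to 7.91 in control libraries. The counts of Timm8a1 were separate between groups, but so low that its log2 ratio to Timm8b moved from a difference of 1.10 to 0.014 when 5 in place of 0.5 counts were added.

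The TIM22 complex, which inserts carrier proteins into the inner membrane, held values in both directions. By edgeR and by DESeq2 0 of its 3 members passed, with 2 higher and 1 lower at an unadjusted p under 0.05 by edgeR. Over all genes 4.68% rose by edgeR, and at the unadjusted p 13.6% were higher and 12.8% lower. Its channel Timm22 had 317 to 391 normalised counts in Mitol KO and 253 to 320.3 in control libraries (log2 fold change 0.34, edgeR, adjusted p = 0.109). Timm29, which links TIM22 to the TOM complex, had 417, 366, 430.2 and 368 in Mitol KO and 329.7, 332, 356 and 245 in control replicates 1 to 4. These groups were separate, yet the log2 fold change of 0.31 did not pass (edgeR, adjusted p = 0.166). Timm10b, the small TIM protein bound to TIM22, leaned the other way with 187 to 273 in Mitol KO and 225 to 355 in control libraries (log2 fold change -0.40, 95% interval from -0.79 to -0.0071, edgeR, adjusted p = 0.183). It was the single member lower at an unadjusted p under 0.05, which held in 2 of 8 fits with a library left out, those without Mitol KO replicate 3 or control replicate 2. All of its 300 coding bases overlap exons of other annotated genes.

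In the TOM complex the central receptor Tomm22, which docks the other receptors and holds the channels together, was called. Tomm22 (chr15:79555059-79567316, plus strand) had 561, 546, 445 and 388 normalised counts in Mitol KO and 326, 335, 371 and 304 in control replicates 1 to 4. The groups were separate, and the log2 fold change was 0.52 (standard error 0.13, edgeR, adjusted p = 0.036, 4 of 4 libraries). With library totals alone in place of TMM scaling it missed the threshold (0.46, edgeR, adjusted p = 0.051), and it passed in 1 of 8 fits with a library left out, the one without Mitol KO replicate 4. In the annotation the Tomm22 transcript overlaps exons of Gm30877 and Josd1 on the opposite strand, and 117 of its 426 coding bases are overlapped. The part of such reads in the Tomm22 counts was not tested. Tomm70a, the receptor for carriers delivered by Hsp70 and Hsp90, had 808 to 1162 in Mitol KO and 745 to 866 in control libraries (0.27, edgeR, adjusted p = 0.169). Tomm20, the receptor for presequences, had 528 to 644 and 514 to 577 (0.075, edgeR, adjusted p = 0.678), and stretches of its coding sequence are shared in the same way with 5 other annotated genes. Tomm20l was too low to be tested, at 0 to 4.23 and 1.88 to 5.39 normalised counts.

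The channel Tomm40 had 649.6, 679, 585 and 485 normalised counts in Mitol KO and 596, 378, 483 and 405 in control replicates 1 to 4. These overlapped through control replicate 1, and the log2 fold change of 0.35 did not pass (edgeR, adjusted p = 0.170). Its paralog Tomm40l had 64.2 to 101.8 in Mitol KO and 43.1 to 72.5 in control libraries (0.42, edgeR, adjusted p = 0.278). The log2 ratio of Tomm40 to Tomm40l differed by -0.065 (2-sided exact permutation test, p = 0.800).

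The small TOM subunits stabilise the channel. Tomm5 had 81.4, 80.0, 70.5 and 55.0 normalised counts in Mitol KO and 65.9, 62.8, 76.3 and 74.5 in control replicates 1 to 4, overlapping groups (log2 fold change 0.018, edgeR, adjusted p = 0.970). Tomm7 had 55.6, 66.5, 63.2 and 66.7 in Mitol KO and 54.1, 31.9, 51.8 and 44.0 in control libraries, separate groups at low counts that did not pass (0.45, edgeR, adjusted p = 0.254). Stretches of the Tomm7 coding sequence are shared with 2 other annotated genes, 1 of them in the count table. Tomm6 was too low to be tested, at 2.35 to 9.35 and 4.26 to 13.2, and the annotation covers its whole transcript with exons of other genes. The antisense row Tomm6os, which the rule also took, had 21.1, 14.5, 9.15 and 30.7 in Mitol KO and 22.4, 10.6, 22.6 and 8.08 in control libraries (0.23, edgeR, adjusted p = 0.801). In the annotation 61.1% of the Tomm6os transcript overlaps exons of other genes, Tomm6 among them. Without strand, reads from the bases shared with Tomm6 cannot be told apart. Tomm34, a cytosolic chaperone partner, had 1513, 1710.4, 1469 and 1382 in Mitol KO and 1581, 1407, 1597 and 1523 in control libraries, with a log2 fold change of -0.027 (95% interval from -0.22 to 0.16, edgeR, adjusted p = 0.879).

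The import motor pulls preproteins into the matrix, and 0 of its 4 members passed by edgeR or DESeq2. At an unadjusted p under 0.05 by edgeR 1 of the 4 was higher, against 13.6% of all genes. Dnajc19 (Pam18), the J-protein that stimulates mitochondrial Hsp70, had 325 to 439 normalised counts in Mitol KO and 259.8 to 338 in control libraries (log2 fold change 0.32, edgeR, adjusted p = 0.148). Grpel1, the nucleotide exchange factor, had 213, 221, 208 and 212 in Mitol KO and 189.9, 172, 184 and 143 in control replicates 1 to 4. Its groups were separate and the Mitol KO libraries close together, but the log2 fold change of 0.29 did not pass (edgeR, adjusted p = 0.203). Timm44, which tethers Hsp70 to the channel, had 672 to 782 and 616 to 877 (0.0088, edgeR, adjusted p = 0.974). Pam16, the J-like partner of Dnajc19, had 236, 295, 274 and 243 in Mitol KO and 270.4, 282, 237 and 285 in control libraries (-0.055, edgeR, adjusted p = 0.825). Every base of the Pam16 transcript overlaps Glis2 on the opposite strand, which had a log2 fold change of -0.23 (edgeR, adjusted p = 0.281). A stretch of the Pam16 coding sequence is also shared with Pam16l, which is in the count table.

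The motor's exchange factors and J-proteins were also compared within libraries. The log2 ratio of Grpel1 to its paralog Grpel2 was higher by 0.36 in Mitol KO (2-sided exact permutation test, p = 0.0857, 0.171 adjusted over 8 pairs). That of Dnajc19 to Dnajc15 differed by 0.14 (2-sided exact permutation test, p = 0.400). Neither difference passed.

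In the SAM complex, 0 of the 3 members passed by edgeR or DESeq2. At an unadjusted p under 0.05 by edgeR 1 of the 3 was higher, against 13.6% of all genes. Samm50, the barrel of the SAM complex, had 1064, 1192, 1078 and 979 normalised counts in Mitol KO and 1104, 1035, 1095 and 1019 in control replicates 1 to 4. Its log2 fold change was 0.0017 with a 95% interval from -0.19 to 0.19 (edgeR, adjusted p = 0.994). The metaxin Mtx2 had 275, 352, 308 and 269.8 in Mitol KO and 265, 228, 236 and 229.9 in control libraries, separate groups that did not pass (0.31, edgeR, adjusted p = 0.151). Mtx1 had 119.7 to 154 and 113 to 136 (0.079, edgeR, adjusted p = 0.800), and the log2 ratio of Mtx1 to Mtx2 differed by -0.23 (2-sided exact permutation test, p = 0.0857, 0.171 adjusted over 8 pairs).

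The subunits of the matrix processing peptidase, which cuts off presequences, are Pmpca and Pmpcb. Pmpca had 1061, 1197, 1055 and 1047 normalised counts in Mitol KO and 999.6, 1067, 953 and 968 in control replicates 1 to 4, overlapping groups (log2 fold change 0.11, edgeR, adjusted p = 0.439). Pmpcb had 387 to 449.9 and 324 to 444 (0.099, edgeR, adjusted p = 0.639), and the log2 ratio of both subunits differed by 0.0061 (2-sided exact permutation test, p = 0.971). Immp1l, a catalytic subunit of the inner membrane peptidase, was low with 23.3 to 40.7 in Mitol KO and 26.4 to 69.1 in control libraries, and its log2 fold change of -0.36 had a 95% interval from -1.08 to 0.36 (edgeR, adjusted p = 0.529). Oxa1l, the insertase for proteins that enter the inner membrane from the matrix, had 1077, 931, 1031 and 972 in Mitol KO and 939, 983, 947 and 783 in control libraries (0.12, edgeR, adjusted p = 0.467).

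In the disulfide relay Chchd4, the oxidoreductase that traps cysteine-rich precursors, had 223, 229.6, 226 and 184 normalised counts in Mitol KO and 186, 195, 179 and 195 in control replicates 1 to 4. The lowest Mitol KO library lay inside the control range, and the log2 fold change of 0.18 did not pass (edgeR, adjusted p = 0.436). Gfer, which reoxidises Chchd4, had 94.2 to 127.6 and 55.7 to 112 (0.31, edgeR, adjusted p = 0.411).

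**Figure D3:**
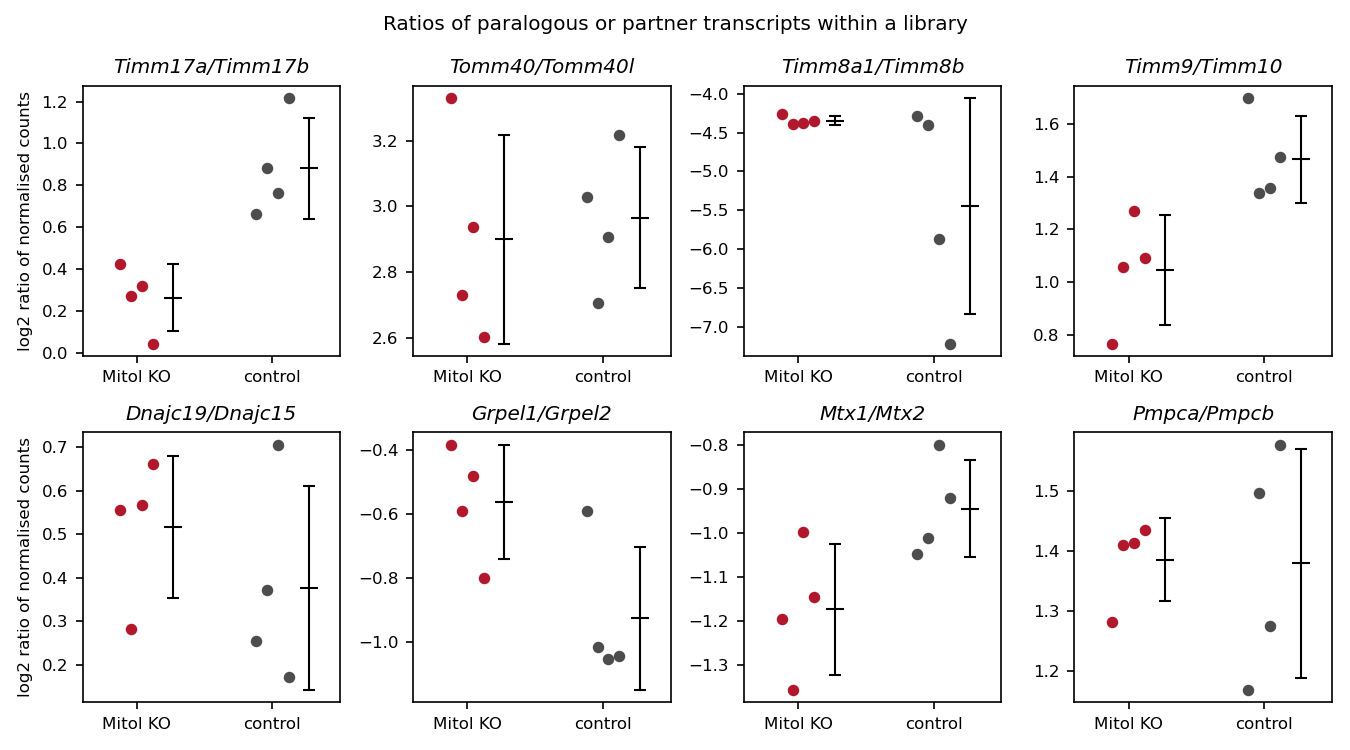
Log2 ratio of normalised counts within a library (y axis, scaled to each pair) for the 8 pairs of paralogs or partners, Mitol KO in red and control in grey, with mean and SD of 4 libraries. Timm17a/Timm17b and Timm9/Timm10 are the pairs whose groups do not overlap, and both ratios are lower in Mitol KO by 0.62 and 0.42.

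The members also differ in abundance. Per kilobase of the canonical transcript, and averaged over both group means, Tomm34 had 650.5 normalised counts, Pam16 445, Timm44 402 and Oxa1l 374. Pmpca had 332, Tomm40 316, Timm50 296, Tomm22 261, Pmpcb 248 and Samm50 229.6. The TIM23 channel subunits were lower on this scale, with 96.3 for Timm23, 53.3 for Timm17b and 42.6 for Timm17a. On control means alone Timm17a and Timm17b were level. Canonical transcripts of the protein-coding members are between 578 and 7280 bases long in the annotation, and a gene whose cells use a shorter form is placed too low.

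Of 19 other genes of the pathway, all tested, 4 rose and 0 fell by edgeR and by DESeq2, with 7 higher and 1 lower at an unadjusted p under 0.05 by edgeR. Over all genes 4.68% rose and 3.75% fell by edgeR, and 8.19% rose by DESeq2. At an unadjusted p under 0.05 by edgeR, 13.6% of all genes were higher and 12.8% lower. The 4 are chaperones that handle precursors, but other chaperones or chaperone partners of the list did not pass. Dnaja1, Dnajc15, Dnajc11 and Grpel2 had log2 fold changes of 0.25, 0.20, 0.053 and -0.067 (edgeR, adjusted p = 0.511, 0.442, 0.747 and 0.800). Hspa9, the mitochondrial Hsp70 of the import motor, had 2220.5, 2147, 1810 and 1678 normalised counts in Mitol KO and 1617, 1416, 1413 and 1138 in control replicates 1 to 4 (log2 fold change 0.47, edgeR, adjusted p = 0.032, 4 of 4 libraries). The cytosolic Hsp70 Hspa8 and the Hsp90 genes Hsp90aa1 and Hsp90ab1, whose proteins deliver precursors to Tomm70, had log2 fold changes of 0.76, 0.86 and 0.43 (edgeR, adjusted p = 0.039, 0.0096 and 0.027). These cytosolic chaperones also serve many other proteins. The median of the 19 was 0.29. Values that did not pass included 0.41 for Aifm1, a partner of Chchd4, 0.40 for Romo1 and -0.35 for Mtx3 (edgeR, adjusted p = 0.108, 0.194 and 0.159).

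Cycling markers were set beside the called members in each library. The summed counts of the 8 cycling markers were 11556, 11287, 8862 and 5294 in Mitol KO and 2661, 2728, 5586 and 4077 in control replicates 1 to 4. The 4 Mitol KO libraries had the same order of level for Timm50, Tomm22 and Timm17b as for this sum, but not for Timm8b. Among the controls the order differed, since control replicate 1 had the lowest sum but the highest Timm17b and Timm8b counts, and control replicates 3 and 4, with the highest sums, had the lowest Timm8b counts. Mitol KO replicate 4, the lowest in Timm50, Tomm22, Timm17b and Timm8b within its group, also had the lowest cycling sum, below that of control replicate 3. For Timm50 and Tomm22, Mitol KO replicate 4 and control replicate 3 were close, at 367 and 352 and at 388 and 371. For Timm8b and Timm17b the same libraries were apart, at 139.7 and 83.8 and at 226 and 173. The sum of erythroid markers had another order, with the highest value of 3767 in Mitol KO replicate 3. The part of cell cycling and of erythroid RNA in the members' values was not tested.

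**Figure D4:**
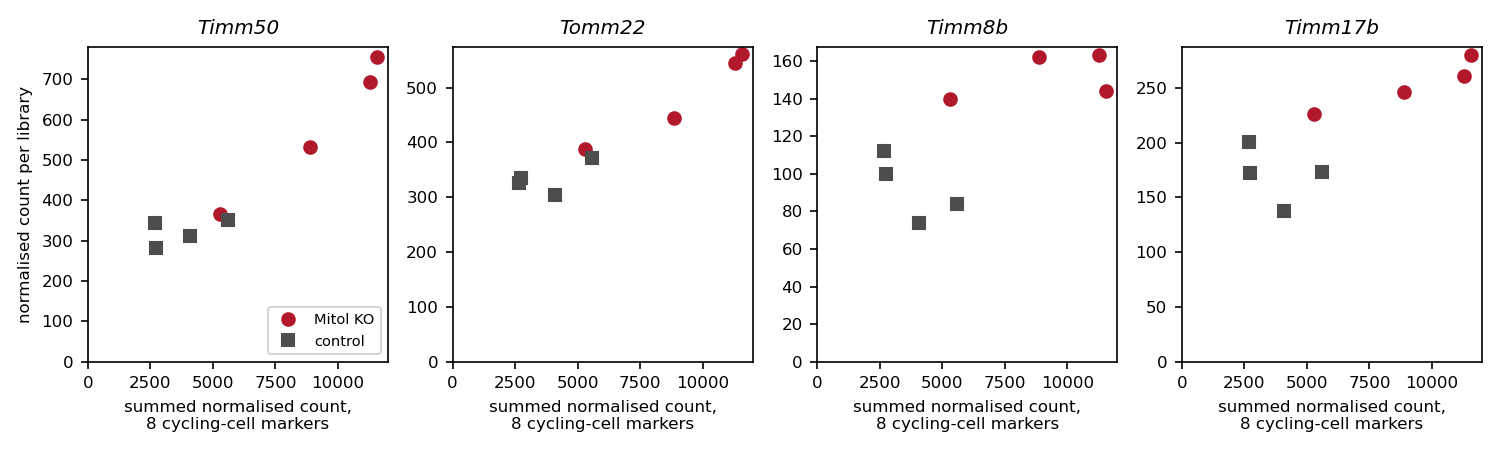
Normalised count of each called member (y axis) against the summed normalised count of 8 cycling-cell markers (x axis) in each library, Mitol KO as red circles and control as grey squares. Mitol KO replicate 4 (cycling sum 5294) and control replicate 3 (5586) lie close together for Timm50 and Tomm22 and apart for Timm8b and Timm17b.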

How the data were processed

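RNA-seq libraries of 100 sorted HSCs were compared between 4 Mitol KO and 4 control samples, grouped by the deposited labels. Per the study's methods and the submitters' processing notes, the authors aligned single-end reads of 75 bases with STAR to mm39, handled alignments with SAMtools and used Subread to count the reads of each gene, and they deposited raw counts without normalization. The gene annotation and the strand setting are not given in the sources used here. Every row of the table sums to at least 11 counts, so rarer genes are absent, and 1029 rows without a gene symbol (0.335% to 0.467% of a library's counts) stayed out of library sizes and tests.

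Genes were tested with edgeR (version 4.0.16; glmQLFit and glmQLFTest, TMM scaling, filterByExpr, condition as the sole term) with Benjamini-Hochberg adjustment over 16444 genes. For normalised counts, each count was divided by its library's size factor from DESeq2 (version 1.42.0), and limma (version 3.58.1) served for voom. Log2 ratios of 8 pairs, with 0.5 added to each normalised count, were set against the 70 possible arrangements of the libraries in 2-sided exact permutation tests. Positions, lengths and overlaps came from GENCODE vM39 on GRCm39, the assembly that mm39 names, in which all 38 members matched by symbol, and 20368 of 22065 named rows did. Shared stretches of coding sequence were searched with blastn (version 2.17.0) at 95% identity over 75 bases. Such stretches were found for 9 members, not all of which are pointed out above. The rule for members uses gene names and no values, but it was set, like the lists, pairs and motifs, with earlier results of these data known. All members are named, and values are given library by library where a member passed, where its groups did not overlap, where it was the most abundant per length of its translocase, or where it was a partner in a pair that separated. Promoters were printed for members that passed and for the paralog Timm17a.

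Totals of 7214935 to 12398138 counts from 100 cells each, without molecular identifiers, limit the precision. No libraries of the 28 pairs compared had identical counts. Alternatives covered scaling, the filter, DESeq2, voom, the replicate number as a block, the threshold, the added count and each library left out. Protein sequences were not used here. HSC marker counts cover the 8 markers reported, and 1 further marker of that list is not reported here.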

Additional observations from a re-analysis of the deposited data

Results flagged for a closer look

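Among 84 sets of 4 values (34 tested members and 8 pairs, in each group), 6 held a sample whose gap to the others exceeded Dixon's 95% critical value of 0.829, and chance flags about 1 in 20 such sets. Timm17a had 294.8 normalised counts in control replicate 3, below 317.8 to 319.7 in the other controls. Pmpca had 1197 normalised counts in Mitol KO replicate 2, above 1047 to 1061 in the rest of its group. Chchd4 had 184 normalised counts in Mitol KO replicate 4, below 223 to 229.6 in the rest, and Timm10b had 273 in Mitol KO replicate 3, above 187 to 199.96. The log2 ratio of Grpel1 to Grpel2 was -0.59 in control replicate 1, above -1.05 to -1.02 in the other controls. The log2 ratio of Pmpca to Pmpcb was 1.28 in Mitol KO replicate 1, below 1.41 to 1.43 in the rest. The 6 values came from 6 different libraries, and the causes were not tested.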

How the results depend on the processing

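The 4 members passed under size factors of DESeq2, no filter, a stricter filter (50 counts in 4 libraries), DESeq2, limma-voom and the replicate block, and 3 passed with library totals alone. No member fell under any of these or with a library left out. DESeq2 called 2315 genes over all and a threshold of 0.1 gave 2585, against 1386, with 4 members under each. With the replicate number as a block, 4 members and 1652 genes passed. The numbers pair only by name, since the correlation of deviations exceeded 0.1 in 0 of 4 pairs and 2 of 4 Mitol KO libraries matched their own number best, and no member's call changed under the replicate block. In the sign-flip test of same-numbered libraries the smallest p is 0.125. With 1 library left out, members called ranged from 0 to 6, genes called from 359 to 2501, and the members' median log2 fold change from 0.16 to 0.30. Near-zero members turned sign. With library totals alone, Samm50 was -0.053, Tomm5 -0.038 and Timm44 -0.044, with the stricter filter -0.025, -0.0093 and -0.017, and with the replicate block Samm50 was -0.0010. With a library left out, the log2 fold change ranged from -0.14 to 0.093 for Timm17a, from -0.082 to 0.035 for Tomm34, from -0.044 to 0.14 for Tomm5, from -0.062 to 0.12 for Timm44, from -0.014 to 0.18 for Timm9, from -0.043 to 0.064 for Samm50 and from -0.071 to 0.48 for Tomm6os, and the difference in log2 ratio from -0.064 to 0.072 for Pmpca/Pmpcb and from -0.21 to 0.034 for Tomm40/Tomm40l. The cause was not tested. Counts of 100 cells per library limit the low members.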
